A study of Mus musculus with 4 samples.

Results

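Liver sinusoidal endothelial cells line the capillaries of the liver lobule, and 10 genes known for their expression in these cells were looked for by symbol among the 7000 genes of the liver RNA-Seq table. Of the 10 genes, 7 were listed: the scavenger receptors Stab1 and Stab2, the lectin Clec4g, the vascular endothelial growth factor (VEGF) receptors Kdr and Flt1, the junction protein Pecam1 and the co-receptor Eng. Lyve1, Mrc1 and Tek were not listed under these symbols or under an older symbol, so their levels were not analysed here. The libraries came from whole liver of male FVB/N mice that received, from weaning and for 6 weeks, a torula yeast diet with either 0 ppm Se (0 Se, 2 mice) or 0.1 ppm Se added as sodium selenite (0.1 Se, 2 mice). No mouse carried a transgene or a deletion according to the labels and methods, and ribosomal RNA was removed before library construction. Each row of the table holds an mRNA length and 1 mean level over the 4 libraries, with no value for a single mouse. Levels are therefore described without an error, the number of reads behind them is unknown, and no difference between the diets was tested here.

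These endothelial cells differ from those of other capillaries in that open pores cross the cell and no continuous basement membrane lies beneath it, so that plasma reaches the hepatocytes freely. They are known for their high rate of endocytosis, which removes hyaluronan, denatured collagen, modified lipoproteins and small immune complexes from the blood through scavenger and lectin receptors. Their growth and differentiated state depend on VEGF from neighbouring cells, on angiopoietins and on bone morphogenetic proteins. In RNA of whole liver, fewer cells of a type and less RNA per cell cannot be told apart.

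The most abundant listed member was Clec4g when the level was divided by mRNA length. Its mean was 94.9 counts per 1000000 (CPM) for an mRNA of 1235 bases, which is 76.9 CPM per kilobase (kb). Clec4g, also known as LSECtin, is a C-type lectin of the sinusoidal wall that binds glycans of pathogens and of T cells. Only 553 of the 7000 listed genes were higher on this scale, which placed Clec4g above 92.1% of them. Stab2 was second at 16.4 CPM per kb, and the level of Clec4g per kb was 4.69 times that of Stab2. The lowest listed member was Flt1 at 2.04 CPM per kb, above 24.5% of the listed genes. From Flt1 to Clec4g the levels per kb at the listed lengths thus spanned a 37.7-fold range. In CPM the range of the listed members was 10.4-fold. Apart from Flt1, each listed member lay above the median of all listed genes, 6.19 CPM per kb. Among the 4625 listed genes with at least 10 CPM, however, Stab1, Pecam1 and Eng also lay below the median per kb.

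Without division by length the order was different. The stabilins have listed mRNAs of 7995 and 8133 bases against 1235 for Clec4g, and 6 of the 7 listed members were longer than the median listed gene, 2959.5 bases. In CPM, where a long mRNA collects more reads than a short one present in as many copies, Stab2 was highest at 133 CPM and Clec4g second at 94.9 CPM. Kdr at 82.2 CPM and Stab1 at 74.1 CPM kept the third and the fourth place on either scale. Eng at 28.8 CPM and Pecam1 at 28.2 CPM followed, and these exchanged places per kb. Flt1, at 12.8 CPM, was lowest on either scale. With no spread between mice, it cannot be said which neighbours in these orders differ.

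**Figure D1:**
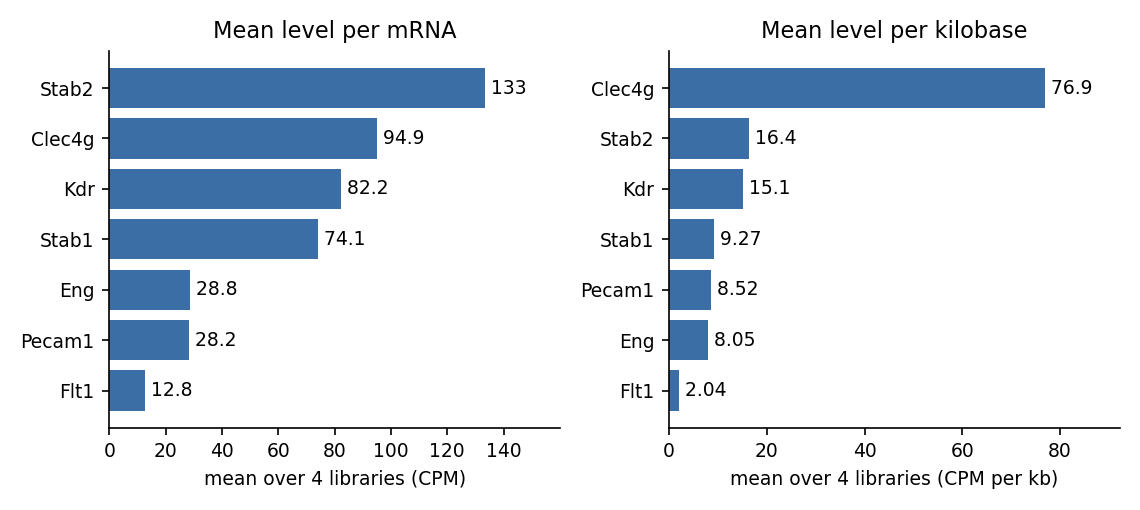
Mean level of the 7 listed members over the 4 libraries, in CPM on the left and in CPM per kb of listed mRNA length on the right, with bars that start at 0 and the value beside each bar. Clec4g stands at 76.9 CPM per kb against 16.4 for Stab2, while in CPM Stab2 leads with 133. No error bars are drawn because the table holds 1 mean per gene.

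Among the scavenger receptors, Stab2 exceeded Stab1. The stabilins are large receptors of the same family with many EGF-like and fasciclin domains. Stab2 is the main hyaluronan clearance receptor of the liver, and Stab1 takes up modified lipoproteins and extracellular matrix proteins. Stab2 reached 16.4 CPM per kb and Stab1 9.27 CPM per kb, a ratio of 1.77. The ratio hardly depended on the scale, being 1.8 in CPM, since the mRNAs are of nearly equal length. In the NCBIM37 (mm9) build, to which all gene positions refer, Stab2 spans 86303943 to 86470770 of chromosome 10 and Stab1 spans 31952199 to 31981827 of chromosome 14. Both genes are on the minus strand, and the annotated transcript nearest to each listed length has 69 exons in either gene. The coding regions are 7680 bases for Stab2 and 7716 bases for Stab1. Despite the kinship of the genes, reads of the length sequenced can be assigned: of all 50-base windows of the mRNA, 100% for Stab2 and 99.2% for Stab1 aligned to a single place with up to 2 mismatches when searched against 1 annotated mRNA for each of 22611 genes.

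Clec4g is the shortest of the listed members. It lies on chromosome 8 from 3707064 to 3720651 on the minus strand, with 9 exons and 885 coding bases in the transcript nearest to the listed length. Every 50-base window of that transcript was unique in the search. Clec4f, the corresponding C-type lectin of Kupffer cells, had a level of 74.8 CPM per kb against 76.9 CPM per kb for Clec4g. In CPM, Clec4g was at 0.529 times the level of Clec4f, 94.9 against 179.6 CPM. Mrc1, the mannose receptor, which clears collagen fragments and is also made by macrophages, and Lyve1, a hyaluronan receptor first known from lymphatic vessels, belong to the same receptor group but were not listed. Their mRNAs are annotated with 5352 and 2607 bases, and all their 50-base windows were unique in the same search.

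Of the VEGF receptors, Kdr was higher than Flt1 on either scale. Kdr (VEGFR2) carries most of the growth signal of VEGF-A, whereas Flt1 (VEGFR1) binds the same ligand tightly with weak kinase activity and is also made in a secreted form that traps it. Kdr had a level of 15.1 CPM per kb and Flt1 of 2.04 CPM per kb, a 7.40-fold difference. In CPM the levels were 82.2 and 12.8, or 6.42-fold. Both receptor genes are on the minus strand of chromosome 5, Kdr from 76328852 to 76374483 and Flt1 from 148373180 to 148537587. Flt4 (VEGFR3), the receptor of VEGF-C, was at 6.23 CPM per kb, between these receptors at the listed lengths. With the shortest annotated transcript as length, Flt1 would be at 6.25 CPM per kb, about level with Flt4, and Kdr at 13.9. For Flt1, however, that transcript differs by 4231 bases from the listed length. The size of the difference per kb between Kdr and Flt1 thus depends on the length used. In CPM it may depend on the form of Flt1 to which the reads were aligned. Nrp1, a co-receptor that presents VEGF-A to Kdr, was at 31.6 CPM per kb, which is 2.09 times the level of Kdr per kb and 2.27 times that in CPM.

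The level of Flt1 per kb is less certain than that of the other members, because it depends on which transcript the reads came from. Its listed length of 6280 bases is within 12 bases of the annotated transcript Flt1-002, which has 13 exons and 2067 coding bases. The transcript with the longest coding region, Flt1-001, has 30 exons, 4002 coding bases and 6895 bases in all, 615 more than listed. Length alone does not identify the entry that the authors used. The transcripts share their first 1972 coding bases and then part. The 30 coding bases before that point and, in capitals, the 30 after it are shown to make the difference between the forms visible, 5′ to 3′ in the mRNA sense from GENCODE vM1 on NCBIM37:
Flt1-001: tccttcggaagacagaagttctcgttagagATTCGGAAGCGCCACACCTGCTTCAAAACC
Flt1-002: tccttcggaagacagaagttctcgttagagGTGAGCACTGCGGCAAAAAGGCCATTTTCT
In Flt1-002 the coding region ends 95 bases after the split, with the stop codon included, against 2030 bases in Flt1-001, and its 3′ untranslated region is annotated with 3971 bases. If Flt1-002 was the entry used, reads from the 2030 coding bases of Flt1-001 after the split may not have aligned. The CPM of Flt1, and not only its level per kb, could then be too low, which was not tested. A shorter annotated form, Flt1-003, has 2049 bases. With that length the level of Flt1 would be 6.25 CPM per kb, and with the length of Flt1-001 it would be 1.86 CPM per kb. Each value holds only if the entry to which the reads were aligned was that form. The listed length differs by 4231 bases from Flt1-003 and by 615 bases from Flt1-001, so neither form matches it. At either value Flt1 remained the lowest of the listed members. The corresponding limits were 8.05 and 10.4 CPM per kb for Eng, 8.19 and 9.46 for Pecam1, 65.8 and 76.4 for Clec4g, and within 0.01 CPM per kb of the value from the listed length for Stab1. For Kdr both limits were 13.9 CPM per kb, against 15.1 at the listed length, and for Stab2 both were 16.2, against 16.4.

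**Figure D2:**
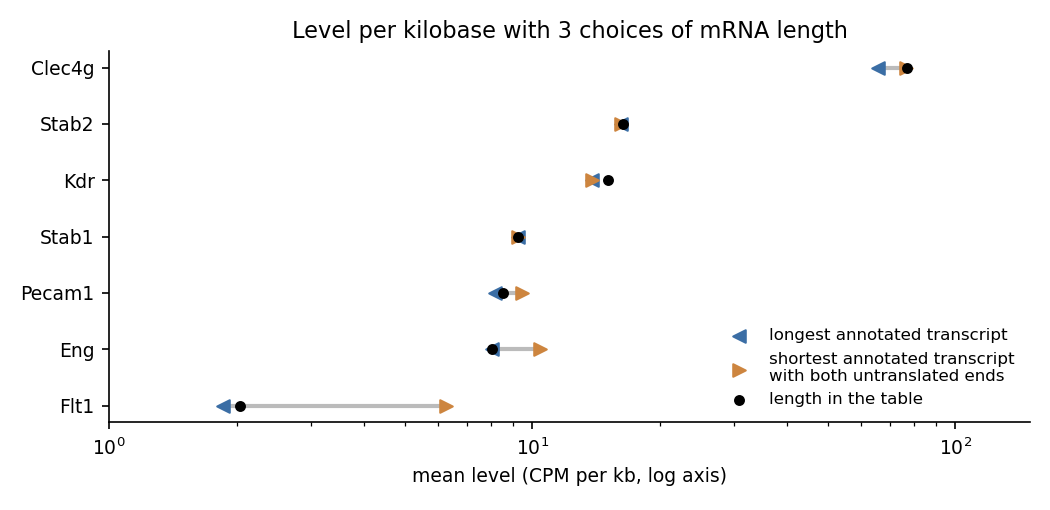
Level per kb (log axis) of the 7 listed members when the mean CPM is divided by the length in the table (black points), by that of the longest annotated transcript (blue, pointing left) or by that of the shortest annotated transcript with both untranslated ends (brown, pointing right). Flt1 spans 1.86 to 6.25 CPM per kb, the widest range, and stays lowest.

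Pecam1 and Eng had nearly the same level. Pecam1 (CD31) is an adhesion molecule of endothelial cell contacts, which platelets and leukocytes also carry. It was at 8.52 CPM per kb. Eng (endoglin) helps the receptor Acvrl1 to respond to bone morphogenetic protein 9, which the liver makes. It was at 8.05 CPM per kb, and Acvrl1 at 1.14 CPM per kb. Pecam1 lies on the minus strand of chromosome 11 from 106515531 to 106611942 with 15 exons, and Eng on the plus strand of chromosome 2 from 32502115 to 32538189 with 14 exons, in the transcripts nearest to the listed lengths. The listed length of Eng, 3572 bases, equals that of an annotated transcript, and that of Pecam1, 3305 bases, is 22 bases from the nearest.

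Tek (Tie2), the receptor of the angiopoietins, was not listed. Tie1, the receptor that pairs with it, was at 4.15 CPM per kb, and Ptprb, the phosphatase that removes phosphate from Tek, was at 15.3 CPM per kb. The angiopoietins Angpt1 and Angpt2 were not listed. Of 9 ligands of the member receptors, 3 were listed. Vegfa, the ligand of Kdr and Flt1, was at 22.9 CPM per kb or 80.9 CPM, which is 1.52 times the level of Kdr per kb and 0.984 times that in CPM. Vegfb, which binds Flt1, was at 1.90 CPM per kb. Tgfb1 was at 0.815 CPM per kb. Vegfc, Pgf, Gdf2 and Bmp10 were not listed.

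The listed members were set beside other genes known from endothelial cells. These are levels in RNA of whole liver, so they do not show where a gene stands within that cell type. Of 37 such genes, 27 were listed, with a median of 4.25 CPM per kb against 9.27 CPM per kb for the members. The highest of the 27 was Nrp1, followed by the sphingosine 1-phosphate receptor S1pr1 at 25.8 CPM per kb, the endocytic recycling protein Ehd3 at 25.5 CPM per kb, Ptprb, the fatty acid receptor Cd36 at 15.3 CPM per kb and coagulation factor F8 at 13.5 CPM per kb. Ehd3 and F8 are known in the liver mainly from sinusoidal endothelium, whereas Cd36 is also made by other liver cells. Per kb, Clec4g was 2.44 times the level of Nrp1 and no listed gene of either endothelial list exceeded it, but in CPM the direction turned, with Clec4g at 0.508 times Nrp1 (94.9 against 186.9 CPM) and below Ptprb, Stab2 and F8 as well. The lowest were the receptor Notch4 at 0.310 CPM per kb, the transcription factor Sox7 at 0.366 CPM per kb and the nitric oxide synthase Nos3 at 0.897 CPM per kb. Of the 27 genes, 19 were above Flt1 per kb at its listed length. This count was 13 in CPM, so that the place of Flt1 among them is not settled. It was 9 with Flt1 at its shortest transcript, but that length is 4231 bases from the listed one. Cdh5, the cadherin of endothelial contacts, and Emcn were not listed.

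The CPM values of the 7 listed members summed to 454, or 0.0454% of all counts. By comparison, the hepatocyte gene Trf, which encodes transferrin, had a mean of 20520 CPM, and its level of 8801 CPM per kb was 114 times that of Clec4g. The lowest of the 8 listed hepatocyte markers, the tyrosine aminotransferase gene Tat, was at 595 CPM per kb and thus 7.74 times above Clec4g. The 10 listed Kupffer cell markers had a median of 35.0 CPM per kb, from 5.15 for the scavenger receptor Marco to 74.8 for Clec4f. The 10 hepatic stellate cell markers had a median of 8.44 CPM per kb, from 1.03 for Col1a1 to 98.3 for the proteoglycan gene Dcn. Of the 5 bile duct cell markers only Spp1 was listed, at 16.6 CPM per kb, and Krt7, Krt19, Epcam and Sox9 were not. These are levels of chosen genes, so they do not measure how many cells of each type the samples held.

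**Figure D3:**
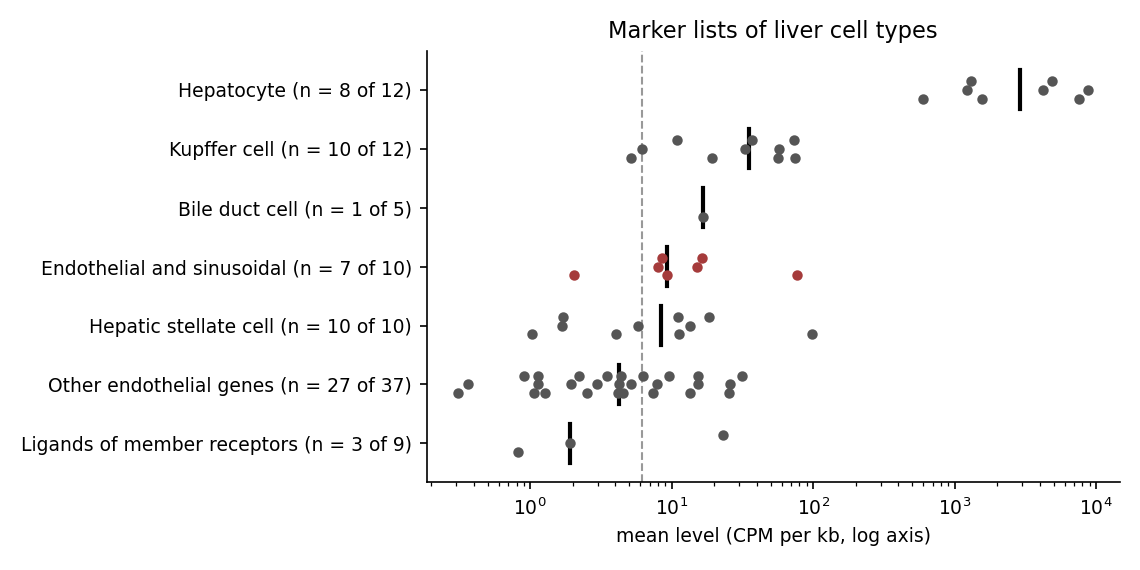
Level per kb (log axis) of each listed gene of 7 marker lists, 1 point per gene, with a black bar at the median of each list and a dashed line at the median of all listed genes, 6.19 CPM per kb. The 7 listed sinusoidal endothelial genes (red) have a median of 9.27 CPM per kb, close to the hepatic stellate cell markers at 8.44. The other endothelial genes are lower at 4.25. The only listed bile duct cell marker at 16.6 and the Kupffer cell markers at 35.0 are higher, and the hepatocyte markers at 2876 far higher.

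The labels call the tissue liver, and its hepatocyte markers were the highest of the lists examined. Of the scavenger, hyaluronan and lectin receptors among the members, Stab2, Stab1 and Clec4g were listed, whereas Lyve1 and Mrc1 were not. Whether a gene is listed does not depend on its level alone, since Alb and Ttr, which are among the most abundant mRNAs of liver, were not listed either. The list runs in order of rising p-value of the authors' diet comparison and stops before the largest ones. Being listed thus depends on that comparison too, and medians, percentiles and counts refer to genes so chosen. The 3 unlisted members can therefore not be placed below the listed ones.

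**Figure D4:**
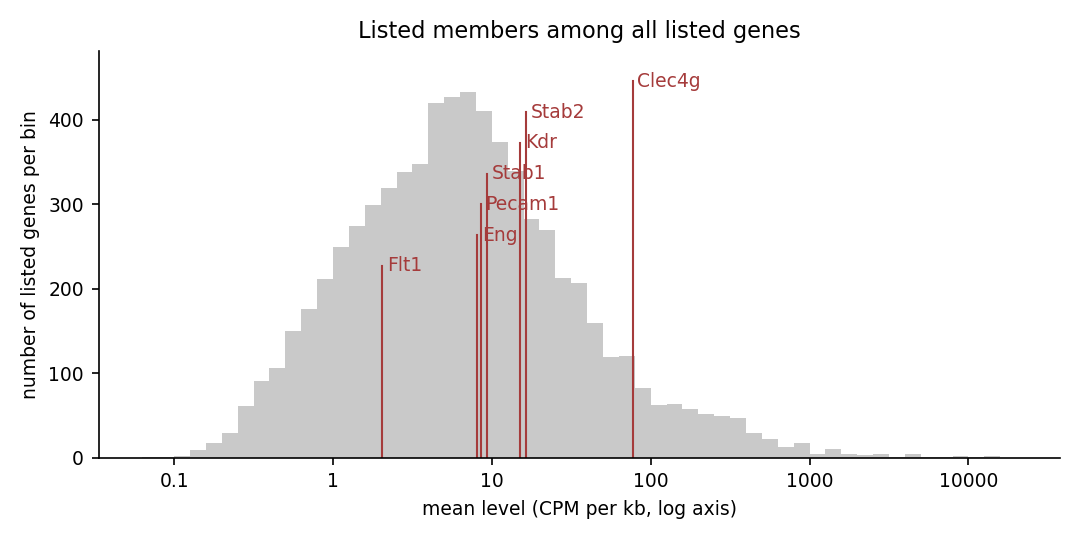
Number of listed genes by mean level per kb (grey bars, log axis) with the position of the 7 listed members marked by red lines, whose heights serve only to separate the names. Clec4g lies above 92.1% of the 7000 listed genes, Stab2 above 73.3%, Kdr above 71.7%, Stab1 above 60.6%, Pecam1 above 58.6%, Eng above 57.0% and Flt1 above 24.5%.

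The start regions of the members were examined for shared features that did not enter their choice. For 8 of the 10 members a window from 250 bases before to 50 bases after the gene start was found in RefSeq (build GRCm38.p6), with none for Lyve1 and Pecam1. The windows of the members at the ends of the order are unlike in composition. That of Clec4g has 51.0% G and C with 4 CG dinucleotides, and that of Flt1 has 70.7% with 29, against medians of 52.7% and 7 over 32851 windows of all genes. Kdr was also rich in CG, with 19. The windows of Stab2 and Stab1 hold 4 and 7. The letters TATAAA, searched on either strand, occur in 2 of the 8 windows, those of Clec4g and Flt1, and in 13.6% of all windows. The 150 bases before these starts are printed 5′ to 3′ on the minus strand on which the genes lie, with the matching bases in capitals. They show that the listed members with the highest and the lowest level per kb hold the match at the same positions but in opposite orientation. For Clec4g the region is chr8:3720652-3720801 and for Flt1 chr5:147726012-147726161, in GRCm38.p6:
Clec4g: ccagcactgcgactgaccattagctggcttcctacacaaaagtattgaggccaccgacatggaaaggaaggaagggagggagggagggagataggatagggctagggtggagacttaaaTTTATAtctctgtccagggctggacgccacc
Flt1: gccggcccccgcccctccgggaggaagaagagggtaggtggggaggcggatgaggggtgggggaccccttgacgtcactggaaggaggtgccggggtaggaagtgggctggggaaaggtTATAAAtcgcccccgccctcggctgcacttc
In either gene the first of the 6 capitals, read along the gene, lies 31 bases before the start. In Flt1 the capitals read TATAAA along the gene. In Clec4g they read TTTATA, which is TATAAA on the opposite strand. The letters GGAAG, the core bound by ETS factors, which include regulators of endothelial genes such as Fli1, occur on either strand in 7 of the 8 windows. They are common letters, which 71.4% of all windows hold. The letters AACAAT, a form of the SOX core, and AGATAA, a form of the GATA core, were searched likewise. They were found in 1 of the 8 windows each, that of Tek, against 10.7% and 11.2% of all windows. Other forms of these cores were not searched. The mRNAs themselves had a median of 51.7% G and C over the 7 listed members, close to 50.2% over the listed genes matched to the annotation.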

How the data were processed

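RNA-Seq libraries of liver from 4 mice, 2 per diet, were made by the authors from total RNA with a stranded kit after removal of ribosomal RNA and read in single-end mode for 50 cycles. Per the labels and methods, Bowtie was used to align reads to RefSeq mRNAs of mm9, 1 entry per gene with the longest isoform, keeping unique alignments with up to 2 mismatches. The log2 mean CPM of each gene was calculated by the authors with edgeR over all libraries, for genes above 1 CPM in at least 3 samples, and deposited as 1 value per gene. The edgeR version, its normalization and its prior count could not be found in the labels or methods, and the depth of each library is unknown.

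The deposited table also holds a log2 fold change, a p-value and an FDR for the authors' own comparison of the diets. These were not used, other than to see that rows run in order of rising p-value and stop before genes of the largest p-values. The deposited list is thus part of the genes tested, and percentiles refer to it. The planned test of the diets needed counts for each mouse and was not run.

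CPM was taken as 2 to the power of the deposited log2 value and divided by listed mRNA length in kilobases. This gives 1 value per gene without an error, and no test was made. The members and marker lists were chosen with earlier results of these data known. All members were named, with the 6 highest and 3 lowest other endothelial genes and the listed ligands. The highest and lowest gene of each other list per kb, among them Trf, were named too. Flt4, Tie1, Acvrl1 and the unlisted genes given in the text were named after the values were seen. Gene models are those of GENCODE vM1, which uses the assembly of mm9 (NCBIM37). By symbol, 96.7% of listed genes matched, and 88.6% of these had a transcript within 10% of the listed length. Windows of 50 bases were aligned with bwa 0.7.19. Levels and percentiles were tested on simulated data. Python 3.11.15, numpy 2.4.6, pandas 2.3.3 and matplotlib 3.10.9 were used. The alternatives were other lengths, no division by length, CPM minimums and other sets of members.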

Additional observations from a re-analysis of the deposited data

How the results depend on the processing

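With the longest annotated transcript as length, or with the number of unique 50-base windows (the latter added after seeing the data), all 7 listed members kept their place in the order. In CPM without division by length 3 of the 7 kept it, with Stab2 and Clec4g exchanged and Eng and Pecam1 exchanged. With the shortest annotated transcript that has both untranslated ends, also added after seeing the data, 5 kept it, Stab1 and Eng having exchanged places. The median level of the listed members, 9.27 CPM per kb, ranged from 8.89 without the highest member to 12.2 without the lowest, and leaving out Mrc1 changed nothing because it is not listed. The median percentile of the members among listed genes was 60.6. It was 60.4 among the 6981 genes with at least 1 CPM, 41.1 among the 4625 with at least 10 CPM and 82.5 in CPM without division by length. Among genes with at least 10 CPM, which leaves fewer low genes by construction, the percentile fell from 24.5 to 2.3 for Flt1, from 58.6 to 38.4 for Pecam1, from 57.0 to 36.2 for Eng and from 60.6 to 41.1 for Stab1, and in CPM that of Flt1 was 39.9. No mouse could be left out, no other normalization could be run, no filter on the counts of single libraries could be changed, and the planned comparison of the diets with its alternatives was not run, since the table has 1 mean per gene.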
